A study of Mus musculus with 4 samples.

Results

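The genes described here encode 8 carriers of small lipids, namely the fatty acid binding proteins Fabp3, Fabp4, Fabp5 and Fabp7, the cellular retinoic acid binding proteins Crabp1 and Crabp2, the plasma retinol carrier Rbp4 and its membrane receptor Stra6. They are 8 of 18193 genes with a probe set and hold 13 of the 45101 probe sets on the array. A probe set is a group of short oligonucleotides that together report 1 transcript. No member's probe set carried several gene symbols (0 of them). The genes were chosen from the measured contrast itself, for opposite moves of Fabp3 and Fabp7, so their differences between the groups are given as a description, without p-values. Calls that the fit across all genes made on members are counted, and nothing is read from them.

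RNA was profiled on 4 arrays, with 2 per subline for a pair of sublines. Both sublines came from p53-/- neural stem cells of C57BL/6 mice, taken from the telencephalon of E14.5 embryos and grown as floating spheres in serum-free medium with PDGF and bFGF. Both had been electroporated with pCMS-EGFP-HRasL61, which carries GFP and an activated HRas, together with pBabe-neo, selected in neomycin and sorted for GFP. The subline labelled GIC (glioma-initiating cell-like) was tumorigenic and the subline labelled non-GIC was not, and every other difference between them goes along with tumorigenicity. Whether replicate arrays stand for separate cultures is not said in the labels, so a p-value here reflects the spread among these samples alone, and that spread may be technical. In bulk RNA, fewer cells of a type and less RNA per cell cannot be told apart.

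Fatty acid binding proteins are small cytoplasmic barrels that hold a long-chain fatty acid and carry it between membranes, enzymes and nuclear receptors. Fabp7, also called brain lipid binding protein, marks radial glia and neural progenitors, Fabp5 is found in neural progenitors and skin, Fabp3 is best known from heart muscle, and Fabp4 from adipocytes, macrophages and capillary endothelium. Crabp1 and Crabp2 belong to the same fold family and bind retinoic acid, the form of vitamin A that acts on nuclear receptors. Vitamin A reaches cells as retinol on Rbp4, can enter through Stra6, is oxidised to retinal by enzymes such as Rdh10 and to retinoic acid by the Aldh1a enzymes, and is cleared by the Cyp26 enzymes.

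The stretches before the transcription start sites of Fabp3, Fabp7 and Crabp1 are shown because these members had the largest differences by representative probe set between the sublines. Each line holds the 250 bases upstream of the start, 5′ to 3′, on the + strand of GRCm38.p6, from RefSeq. Fabp3 lies at chr4:130308488-130308737, Fabp7 at chr10:57784673-57784922 and Crabp1 at chr9:54764498-54764747. Of the 8 members, 5 matched a promoter entry (Fabp3, Fabp7, Crabp1, Rbp4 and Stra6). Capitals mark matches to the motifs searched, on either strand.
Fabp3: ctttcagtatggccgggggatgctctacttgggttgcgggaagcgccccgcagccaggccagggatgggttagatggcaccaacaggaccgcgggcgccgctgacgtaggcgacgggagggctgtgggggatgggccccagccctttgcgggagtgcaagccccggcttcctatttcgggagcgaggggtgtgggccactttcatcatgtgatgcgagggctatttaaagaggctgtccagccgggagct
Fabp7: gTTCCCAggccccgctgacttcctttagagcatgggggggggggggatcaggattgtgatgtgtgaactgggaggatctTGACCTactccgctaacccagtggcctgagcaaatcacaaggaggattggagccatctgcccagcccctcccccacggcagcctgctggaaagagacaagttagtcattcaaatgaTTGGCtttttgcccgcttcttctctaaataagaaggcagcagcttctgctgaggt
Crabp1: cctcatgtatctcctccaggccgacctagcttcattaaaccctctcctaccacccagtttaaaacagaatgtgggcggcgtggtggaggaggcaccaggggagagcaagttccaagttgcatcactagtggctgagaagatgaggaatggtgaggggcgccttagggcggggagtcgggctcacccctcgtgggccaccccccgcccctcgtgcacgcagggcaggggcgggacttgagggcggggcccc

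The motifs were AGGTCA (the core bound by nuclear receptors), 2 copies of it 1 or 5 bases apart (direct repeats that contain that core), TTGGC (an NFI core), TGGGAA (an RBPJ core), ATGCAAAT (the octamer of POU factors), TGANTCA (AP-1) and TATAAA (the TATA box). The Fabp7 window held AGGTCA on the minus strand at positions -171 to -166 from the start, TTGGC at -55 to -51 and TGGGAA on the minus strand at -249 to -244, with no overlap between them. Of 32851 promoter windows of this length, 14% held AGGTCA, 41.5% held TTGGC and 21.6% held TGGGAA. No match to these motifs lay in the windows of Fabp3 or Crabp1, which says only that these letters are not in them. The windows of Fabp3 and Crabp1 had a GC content of 64.8% and 63.6%, and that of Fabp7 54.8%.

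The deposited values are log2-scale signals, so a difference of 1 is a 2-fold difference in signal. Where a pair of values is given for a group, replicate 1 comes before replicate 2. Array medians lay between 6.58 and 6.63. A gene was represented by its probe set with the highest mean and was tested if its signal exceeded the 40th percentile of the table (5.97, the filter level) on 2 or more arrays. Of the 8 members, 6 passed this filter, and Fabp4 and Rbp4 did not. A limma fit across the 13366 tested genes called 257 genes at an adjusted p under 0.05, which is 1.92% of those tested (1.23% higher and 0.688% lower in GIC). It called 2 of the 6 tested members, Fabp3 upward and Fabp7 downward in GIC, and since this contrast chose the members nothing is read from that count. The Fabp3 call was lost without any 1 array other than GIC replicate 2, and the Fabp7 call without any 1 of the 4. Over all genes, omitting GIC replicate 1 left 77 calls, omitting non-GIC replicate 1 left 12 and omitting non-GIC replicate 2 left 56. By the representative probe set, the GIC arrays lay above both non-GIC arrays for 3 members (Fabp3, Crabp1 and Stra6) and below both for 4 (Fabp4, Fabp5, Fabp7 and Crabp2), and the arrays overlapped for Rbp4. Groups did not overlap for 50.4% of the tested genes (25.5% with GIC higher and 24.9% with GIC lower), and nothing is read from the members' count here either.

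**Figure D1:**
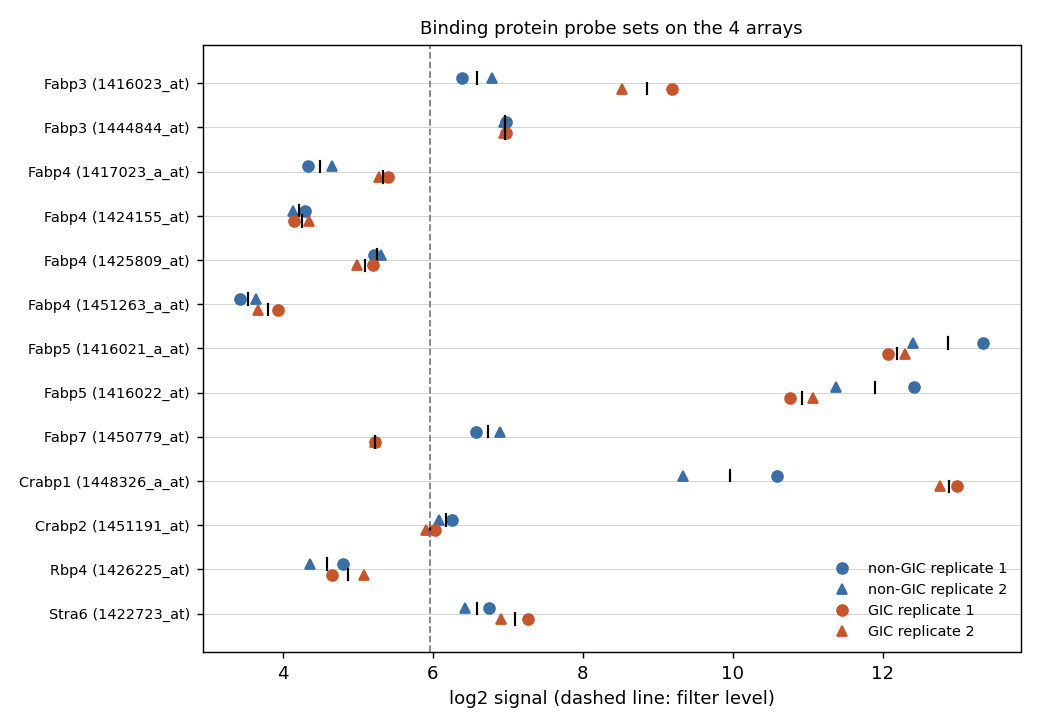
Log2 signal (horizontal axis) of the 13 probe sets of the 8 genes (vertical axis) on the 2 non-GIC arrays (blue) and the 2 GIC arrays (orange), with circles for replicate 1, triangles for replicate 2, black ticks for group means and a dashed line at the filter level of 5.97. Crabp1 and 1 of the Fabp3 probe sets lie to the right in GIC, Fabp7 lies to the left of the dashed line on both GIC arrays, and the Fabp4 and Rbp4 probe sets lie below the filter level on every array.

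Among the fatty acid binding proteins, Fabp3 had the largest difference by representative probe set, while with probe sets of each gene averaged Fabp7 did (-1.51 against 1.13). The Fabp3 probe set 1416023_at gave 6.39 and 6.79 on non-GIC replicates 1 and 2 and 9.19 and 8.52 on GIC replicates 1 and 2. Both GIC arrays lay above both non-GIC arrays, by a gap of 1.73 between the nearest pair, against 0.66 between the GIC arrays and 0.40 between the non-GIC arrays. The mean was 8.85 ± 0.47 for the GIC arrays against 6.59 ± 0.28 for the non-GIC arrays (SD, n = 2), a difference of 2.26 on the log2 scale (SE 0.28) or 4.80-fold. A difference of at least this size in either direction was seen in 1.29% of the tested genes.

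The other Fabp3 probe set, 1444844_at, did not show this. It gave 6.98 and 6.95 for non-GIC against the same 6.98 and 6.95 for GIC, a difference of -0.0048 between the group means. Its replicate arrays were 0.03 apart in both groups, and 91.5% of tested genes were at least that far apart on the GIC arrays. The Fabp3 difference therefore rests on 1 of its 2 probe sets, and the mean of both gives 1.13 (2.19-fold). Which transcripts or exons the probe sets match was not analysed here.

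Fabp7 ran the other way. Its only probe set gave 6.58 and 6.89 on the non-GIC arrays and 5.23 on both GIC arrays. The mean was 6.74 ± 0.22 in non-GIC (SD, n = 2), and the GIC arrays held the identical value, so their SD of 0 is no measure of the spread. The difference was -1.51 on the log2 scale, or 2.84-fold lower in GIC. Identical values on both GIC arrays were found for 189 of the 45101 probe sets (0.42%), and on both non-GIC arrays for 176. Both GIC values lie under the filter level, so the fold can be understated. Fabp7 passed the filter through the non-GIC arrays alone, so it was tested because it is high there. The fitted SE of 0.15 draws on that SD of 0 and may be too small.

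Fabp5, a carrier of fatty acids and retinoic acid, had strong signal on every array and was read by a pair of probe sets. The probe set 1416021_a_at gave 13.34 and 12.40 for non-GIC against 12.07 and 12.30 for GIC. The probe set 1416022_at gave 12.42 and 11.37 for non-GIC against 10.77 and 11.07 for GIC. Both placed non-GIC replicate 1 highest and the other 3 arrays closer together, and both had the GIC arrays below the non-GIC arrays. The differences were -0.68 (SE 0.34) and -0.97 (SE 0.38). The non-GIC arrays differed by 0.94 on the probe set that represents the gene, more than the difference between the groups, and only 3.38% of tested genes differed as much between those arrays. Omitting non-GIC replicate 1 brought the difference of that probe set to -0.21, and omitting non-GIC replicate 2 brought it to -1.15.

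Fabp4 lay below the filter level on every array with each of its 4 probe sets. The highest of them, 1425809_at, gave 5.22 and 5.31 for non-GIC against 5.21 and 4.99 for GIC, a difference of -0.17. The probe set 1417023_a_at gave 4.33 and 4.66 for non-GIC against 5.41 and 5.28 for GIC, which is a difference of 0.85 (SE 0.14) with the GIC arrays above. The remaining probe sets differed by 0.04 and 0.27. The 4 probe sets thus disagreed in direction, and the mean over them was 0.25 higher in GIC.

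Fabp4 and Fabp5 lie in a run of related genes on chromosome 3, in the order Fabp5, Pmp2, Fabp9, Fabp4 and Fabp12 among protein-coding genes. Pmp2, the myelin fatty acid binding protein, lay between 6.16 and 6.42 on all arrays, with a difference of -0.17. Fabp9 and Fabp12 lay below the filter level on every array, with differences of -0.08 and -0.07. Fabp5 was the member of the run with the largest difference, and Fabp5 and Pmp2 were the 2 that passed the filter. Beside the run, the inositol monophosphatase Impa1 also had its highest value on non-GIC replicate 1, with 11.59 and 10.95 for non-GIC against 10.94 and 11.23 for GIC. On the other side, Pag1 gave 8.42 and 8.23 for non-GIC against 8.03 and 8.28 for GIC. Zfp704 was lowest on non-GIC replicate 1, with 8.40 and 8.44 for non-GIC against 8.87 and 8.58 for GIC.

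**Figure D2:**
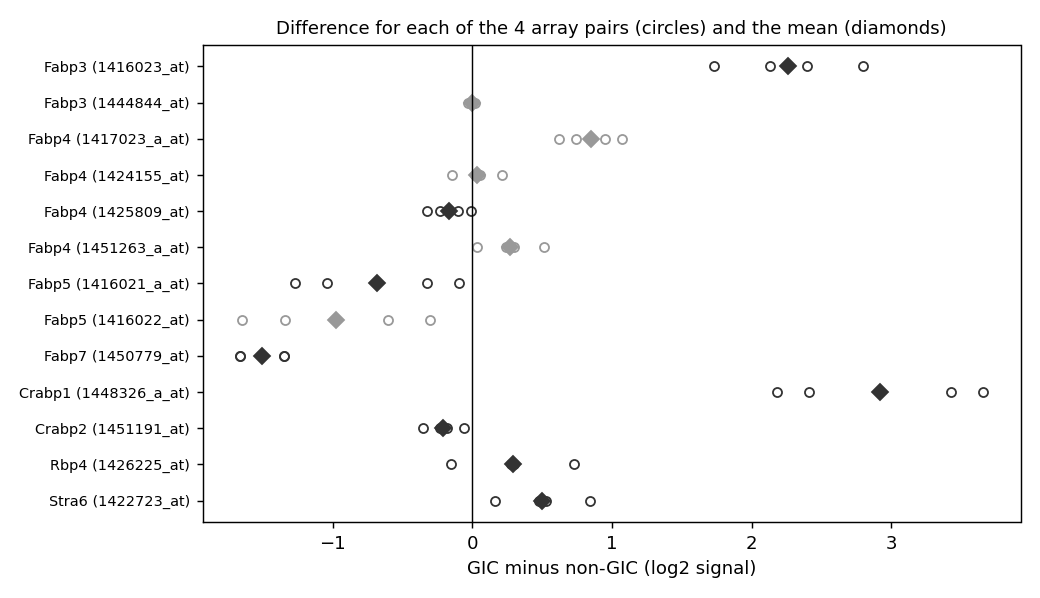
GIC minus non-GIC log2 signal (horizontal axis) for each probe set (vertical axis), with 4 open circles for the 4 pairs of 1 GIC and 1 non-GIC array and a diamond for the difference of the group means. Dark symbols are the probe sets that represent a gene and grey ones the others. All 4 pairs lie right of 0 for Crabp1, Stra6 and the Fabp3 probe set 1416023_at. All 4 lie left of 0 for Fabp7, Crabp2 and both Fabp5 probe sets, and the Fabp4 probe sets scatter on both sides.

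Of the retinoid carriers, Crabp1 had the largest difference, which with all arrays was also the largest of all members. Without non-GIC replicate 2 that of Fabp3 was larger (2.46 against 2.30). Crabp1 gave 10.58 and 9.33 for non-GIC against 12.99 and 12.77 for GIC. Both GIC arrays lay above both non-GIC arrays by at least 2.18. The mean was 12.88 ± 0.16 for the GIC arrays against 9.96 ± 0.88 for the non-GIC arrays (SD, n = 2), a difference of 2.92 (SE 0.43) or 7.57-fold. A difference of at least this size was seen in 0.67% of tested genes. The non-GIC arrays stood 1.25 apart, a distance that 1.80% of tested genes reached. The difference was 3.55 (11.7-fold) when non-GIC replicate 1 was omitted and 2.30 (4.91-fold) when non-GIC replicate 2 was.

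Crabp2, which delivers retinoic acid to its nuclear receptors, lay near the filter level. It gave 6.26 and 6.09 for non-GIC against 6.03 and 5.91 for GIC. The GIC arrays were lower by a gap of 0.06, less than the distance between the arrays of either group, and the group means differed by -0.21 (SE 0.13). Stra6, the receptor that takes up retinol from Rbp4, gave 6.75 and 6.43 for non-GIC against 7.27 and 6.91 for GIC. Its GIC arrays were higher by a gap of 0.16, also less than the distance between replicates, and the means differed by 0.50 (SE 0.20), or 1.41-fold. Rbp4 lay below the filter level on every array, with 4.81 and 4.36 for non-GIC against 4.66 and 5.09 for GIC, and its groups overlapped.

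The other genes of fatty acid and retinoid handling were not used to choose the members, and limma was applied to them in the fit across all genes. Over 8 lists there were 102 tested genes, of which 1 was higher in GIC, 2 were lower and 99 did not pass. This is 2.94%, against 1.92% of all tested genes. The lists were chosen with earlier results of these data known, so nothing is read from this share. The calls of Rdh10 and Nes were lost when either of the non-GIC arrays was omitted. Pdk4 passed the filter through the non-GIC arrays alone. An unadjusted p under 0.05 was reached by 21 of the 102 genes, and by 17.9% of all tested genes (2386 genes). The latter is the share to set beside such counts for single lists below. The median difference was -0.04 over the lists and -0.01 over all tested genes.

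**Figure D3:**
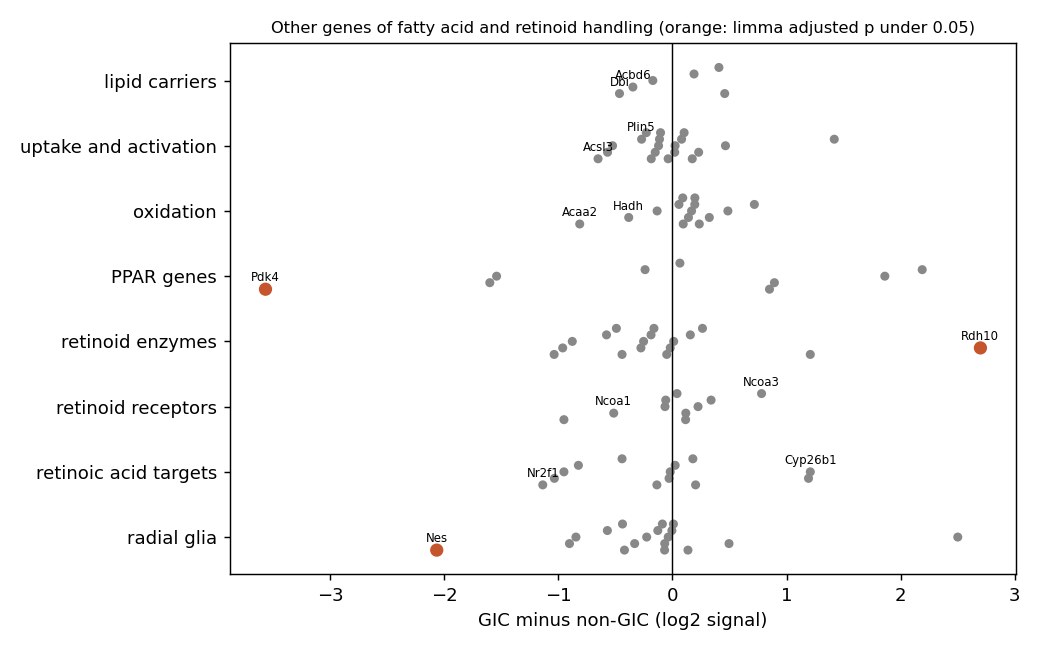
GIC minus non-GIC log2 signal (horizontal axis) of the tested genes of 8 lists (vertical axis, with points spread vertically for legibility), where large orange points passed limma's adjusted p under 0.05 and grey points did not. Rdh10 at 2.70, Pdk4 at -3.57 and Nes at -2.07 are the genes that passed.

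Along the route of vitamin A, the enzyme gene Rdh10, whose product makes retinal from retinol, rose in GIC. Rdh10 gave 10.02 and 9.83 for non-GIC against 12.57 and 12.67 for GIC. The groups were far apart compared with the distance between replicates. The difference was 2.70 (SE 0.16) or 6.49-fold, with an adjusted p of 0.0101 in the limma fit, and both of its probe sets were higher in GIC. The call was lost when non-GIC replicate 1 (limma adjusted p = 0.0785, 6.94-fold) or non-GIC replicate 2 (0.0683, 6.08-fold) was omitted. Of 17 tested genes for retinol carriers and retinoid enzymes, 1 was higher (Rdh10), 0 were lower and 16 did not pass, with a median difference of -0.19. In this list 4 genes had an unadjusted p under 0.05.

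Further enzymes of the route are given by their values, and of these only Cyp26b1 was named by the fixed rule, while Aldh1a3 and Rdh5 were picked after their values were seen. The retinoic acid hydroxylase Cyp26b1 gave 6.85 for each non-GIC array against 8.28 and 7.85 for GIC, a difference of 1.21 (limma adjusted p = 0.0615). The retinoic acid-forming Aldh1a3 gave 6.75 and 7.90 for non-GIC against 6.27 and 6.30 for GIC, a difference of -1.04 (limma adjusted p = 0.273). Rdh5, a retinol dehydrogenase known from the eye, had a difference of -0.96 (limma adjusted p = 0.143). Neither enzyme passed, and the GIC arrays lay below the non-GIC arrays for both.

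Retinoid receptors and genes known to respond to retinoic acid did not pass in either direction. Of 10 tested receptors and coregulators limma called 0, with 1 gene at an unadjusted p under 0.05 and a median difference of 0.08. The coactivator Ncoa3 had a difference of 0.78 (limma adjusted p = 0.121) and Ncoa1 one of -0.51 (limma adjusted p = 0.319). Of 13 tested genes induced by retinoic acid limma also called 0, with 4 genes at an unadjusted p under 0.05 and a median of -0.03. Among them Nr2f1, an orphan nuclear receptor of the developing cortex, gave 11.01 and 11.20 for non-GIC against 9.93 and 10.00 for GIC, a difference of -1.14 (limma adjusted p = 0.0565). Cyp26b1 belongs to this list too, so its members pointed both ways.

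**Figure D4:**
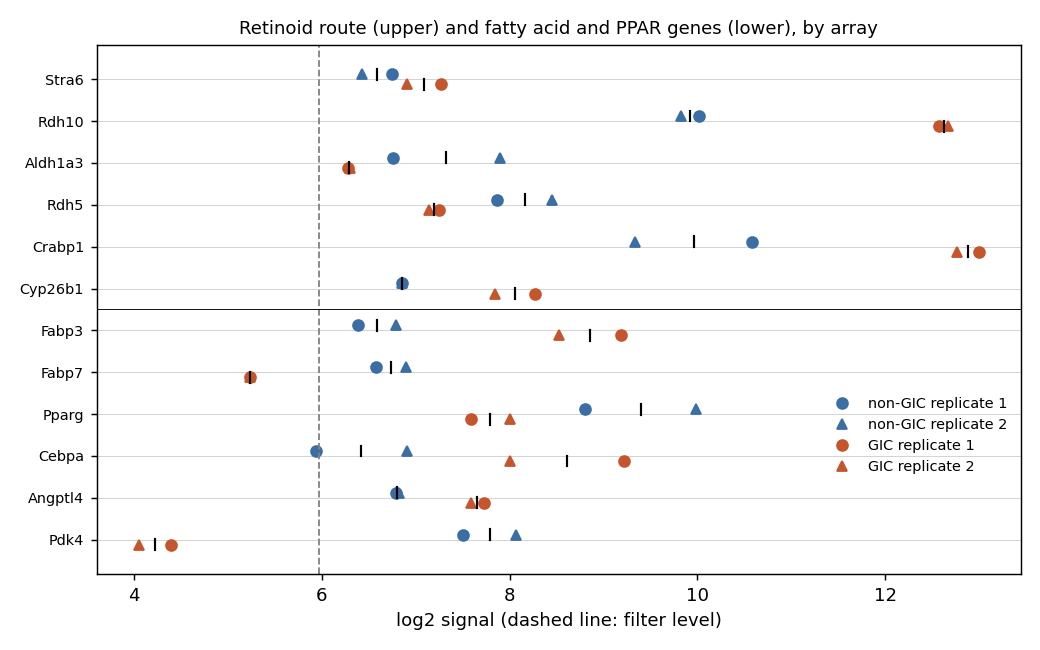
Log2 signal (horizontal axis) of 12 genes (vertical axis) on the non-GIC (blue) and GIC (orange) arrays, with circles for replicate 1, triangles for replicate 2, black ticks for group means and a dashed line at the filter level. Above the solid line are genes of the retinoid route, where Rdh10, Crabp1 and Cyp26b1 lie to the right in GIC, and below it genes of fatty acid handling, where Fabp3 lies to the right and Fabp7 and Pdk4 fall under the filter level in GIC.

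On the fatty acid side, Pdk4 fell. Pdk4 is the kinase that holds back pyruvate dehydrogenase and is a known target of the fatty acid-sensing PPAR receptors. Pdk4 gave 7.51 and 8.07 for non-GIC against 4.39 and 4.05 for GIC, where it lay under the filter level. It passed the filter through the non-GIC arrays alone, so it was tested because it is high there. The measured difference was -3.57 (SE 0.23), or 11.9-fold lower in GIC (a fold that can be understated), with an adjusted p of 0.0122 in the limma fit. Without 1 array the difference ran from -3.85 to -3.29. Those fits kept the filter taken on all 4 arrays. Pdk4 would not pass it with a non-GIC array omitted, so nothing is read from calls on it there. Of 9 tested PPAR genes, 0 were higher, 1 was lower and 8 did not pass, with 7 at an unadjusted p under 0.05 and a median of 0.07.

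Other PPAR genes, picked after their values were seen, pointed both ways and did not pass. The receptor Pparg gave 8.80 and 9.99 for non-GIC against 7.58 and 8.00 for GIC, a difference of -1.60 (limma adjusted p = 0.171). The PPAR target Angptl4, a secreted lipase inhibitor, gave 6.79 and 6.82 for non-GIC against 7.72 and 7.59 for GIC, a difference of 0.85 (limma adjusted p = 0.0601). The adipogenic factor Cebpa had a difference of 2.19 (limma adjusted p = 0.14), with 5.94 and 6.91 for non-GIC against 9.22 and 8.01 for GIC. Angptl4 and Pdk4, both known PPAR targets, thus had differences of opposite sign.

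Genes that use the cargo of the Fabp proteins did not pass the test. Limma called 0 of 6 tested lipid carriers, 0 of 19 genes for fatty acid uptake, activation and lipid droplets, and 0 of 14 for fatty acid oxidation. At an unadjusted p under 0.05 these lists had 1, 0 and 0 genes, and their medians were 0.01, -0.10 and 0.15. The acyl-CoA binding protein Dbi had a difference of -0.46 (limma adjusted p = 0.263) and Acbd6 one of -0.35. The acyl-CoA synthetase Acsl3 stood at -0.65 and the lipid droplet protein Plin5 at -0.27, and the oxidation enzymes Acaa2 and Hadh at -0.81 and -0.38, none of them past the threshold. The differences ran from -0.65 to 1.42 in the uptake list, with lipoprotein lipase, Lpl, at the upper end (limma adjusted p = 0.569, chosen after its value was seen), and from -0.81 to 0.72 in the oxidation list.

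Fabp7 was set beside other genes of radial glia and factors tied to its promoter. Of 18 tested, 0 were higher, 1 was lower (Nes, an intermediate filament of neural progenitors) and 17 did not pass, with 5 at an unadjusted p under 0.05 and a median of -0.11. Nes gave 11.45 and 10.81 for non-GIC against 9.17 and 8.97 for GIC (limma adjusted p = 0.0459). Leaving out any 1 array ended the Nes call, with adjusted p from 0.0898 to 0.166. The NFI genes, whose products are known to bind the Fabp7 promoter, differed by -0.07 for Nfia, -0.23 for Nfib, -0.07 for Nfic and 0.14 for Nfix, and none passed. Of the RBPJ and POU genes in the list, Rbpj differed by 0.50, Pou3f2 by -0.04 and Pou3f3 by -0.57. None of these passed either. In this list the GIC arrays lay below the non-GIC arrays for 8 genes, above for 2 and overlapped for 8. Over all tested genes 24.9% lay below and 25.5% above, and these counts were not tested. Sox2 and Hey1 went the way of Fabp7, at -0.90 and -0.85, and neither passed. Hopx, a homeodomain-only protein of outer radial glia, went the opposite way, with a difference of 2.50 (limma adjusted p = 0.0608). Hey1 and Hopx were picked after their values were seen.

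The labelled cell type was checked against its markers. Of 8 neural stem and progenitor markers 7 passed the filter, Prom1 lay below it on every array, and the mean level of the list was 9.24 to 9.25 on the GIC arrays and 9.59 to 9.86 on the non-GIC arrays. Sox2 gave 11.15 and 11.44 for non-GIC against 10.20 and 10.59 for GIC. Slc1a3, a glutamate transporter of radial glia and astrocytes, gave 8.78 and 11.00 for non-GIC against 10.09 and 9.72 for GIC.

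Markers of cell types known for single members were also read. Of 4 adipocyte markers with a probe set, Adipoq, Lep and Cidec lay below the filter level on every array and Retn lay above it, and the mean of the list was 4.69 to 4.80 in GIC and 4.81 to 4.83 in non-GIC. Of 8 macrophage markers 2 passed the filter (Csf1r and Cd68) and of 6 endothelial markers 2 did (Kdr and Cldn5). Ptprc, Adgre1, Pecam1 and Cdh5 lay below it on every array. Cd68 differed by 0.53 and Csf1r by -0.30, and Kdr and Cldn5 by -0.06 and -0.16. Of 6 muscle markers 3 passed (Tnnt2, Ckm and Actc1), and Myh6, Myl2 and Tnni3 lay below the filter level on every array. Tnnt2, a troponin of heart muscle, gave 10.73 and 9.52 for non-GIC against 9.23 and 10.06 for GIC, so its groups overlapped, and the list's mean was 6.08 to 6.31 in GIC and 6.14 to 6.46 in non-GIC. Of 7 choroid plexus and ependymal markers 4 passed, with means of 5.80 to 5.90 in GIC and 5.87 to 5.99 in non-GIC. Of 8 meningeal fibroblast and mural markers 5 passed, with means of 7.87 to 8.61 in GIC and 8.03 to 8.30 in non-GIC, and Lum and Aldh1a2 lay below the filter level throughout. Its members went different ways, with Foxc1 at 8.90 and 9.12 for non-GIC against 10.24 and 9.86 for GIC, and Col1a1 at 13.84 and 14.57 against 13.59 and 10.70. Pdgfrb was 12.56 and 11.18 on the GIC arrays, so it and Col1a1 were lowest on GIC replicate 2. No marker of these 6 lists was called by limma, and their part in the members' differences was not tested.

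The genes most like Fabp3 and Fabp7 over the 4 arrays were found by the distance between log2 values centred on each gene's mean, among all tested genes. For Fabp3 these were Stat2 (distance 0.12), Irgm1 (0.13) and Lrrn4cl (0.19), with differences of 2.27, 2.15 and 2.27. Stat2 gave 6.28 and 6.51 for non-GIC against 8.98 and 8.35 for GIC. For Fabp7 they were Col4a6 (0.10), Akap12 (0.14) and Arrb1 (0.16), with differences of -1.42, -1.65 and -1.44. Akap12 gave 11.75 and 12.09 on the non-GIC arrays and 10.27 on both GIC arrays. The distance used the same values by which Fabp3 and Fabp7 were chosen. Differences of like size therefore follow from the method, and nothing is read from them. Fabp3 was represented here by 1416023_at alone.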

How the data were processed

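Total RNA was labelled with biotin (Affymetrix One-Cycle), per the labels' protocols. The deposited table holds 1 log2 value per probe set and array. The log base and the closeness of the array medians were read from the values. The normalization the authors used is not given in the sources used here. Probe sets were named through the platform annotation, with symbols updated by Entrez identifier to GRCm38.p6 gene names (34741 of 34945 probe sets with 1 symbol). The 932 probe sets with several symbols, 9160 with none and 64 controls were left out of the fit.

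The difference GIC minus non-GIC was fitted in R 4.3.3 by limma 3.58.1 (lmFit, eBayes with a trend, no covariate, two-sided, Benjamini-Hochberg adjustment over 13366 genes, threshold 0.05). The fit had 2 residual and 2.72 prior degrees of freedom. SEs of members come from the same model over all probe sets with 1 symbol. With 2 arrays a group, precision is limited by their number. Figures used matplotlib 3.10.9 in Python 3.11.15. The fit was tested on simulated data. There it recovered 19.3% of genes changed by 1 log2 unit and 67.1% of those changed by 2. A gene that did not pass can therefore still differ.

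The members, the 8 pathway lists and the marker lists were chosen with earlier results of these data known. Named genes were all members, from each list at most 4 called genes (the 2 lowest p-values where none was called), Nes, Sox2 and Slc1a3 as checks, and the 3 genes nearest to Fabp3 and to Fabp7. Alternatives were a block for the replicate number, median centring or quantile normalization, a filter at the 60th percentile or none, averaging all probe sets of a gene, dropping probe sets whose names end in _s_at or _x_at, robust eBayes or eBayes with no trend, and omission of single arrays. Motifs were matched by letters on both strands.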

Additional observations from a re-analysis of the deposited data

How the results depend on the processing

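The number of changed genes was 29 with the replicate number as a block, and no pathway gene passed (0 genes). Deviations of same-numbered arrays correlated at -0.32 over the tested genes, and the labels tie the numbers to nothing. The main fit therefore did not use the numbers as a pairing. Whether same-numbered arrays were handled together is not known, and the correlation cannot decide it. A block with crossed numbers, chosen after seeing the data, gave 685 genes, of which 10 were pathway genes. Without 1 array the count ranged from 12 to 188 genes, and from 1 to 2 among the pathway genes. The mean of both probe sets gave 1.13 for Fabp3, and the mean of 4 turned Fabp4 from -0.17 to 0.25. Without 1 array the Fabp3 difference ranged from 1.93 to 2.60 and the Fabp7 difference from -1.66 to -1.35. The differences of Fabp3, Fabp5, Fabp7, Crabp1, Crabp2, Rbp4 and Stra6 kept their sign in each of the 9 alternatives run on them. Much of this was fixed in advance. The block and the dropping of probe sets by name could not alter these differences of means. Where groups do not overlap, omitting 1 array cannot turn the sign. Averaging changes nothing for a gene with 1 probe set, so nothing is read from the kept signs. The Nes call was also lost without a level filter and with eBayes without a trend. The Fabp3 call was lost with eBayes without a trend and when its probe sets were averaged. With the replicate number as a block, the Fabp3 and Fabp7 calls were both lost. Fabp7 was not tested with the filter at the 60th percentile (7.42), which it did not reach on any array. Signal near background limits Fabp4, Rbp4, Crabp2 and the GIC values of Fabp7 and Pdk4.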

Other observations

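Several genes of the lists differed more between the non-GIC arrays than between the groups. Those described here were at least 2 apart (log2) on the non-GIC arrays, 4 of lipid and retinoid handling and 1 of radial glia (Slc1a3). These genes were picked after their values were seen. Of the 102 tested pathway genes, 5 were at least 2 apart (log2) on the non-GIC arrays, which is 4.90%, against 0.486% of all tested genes (65 genes). The lists were chosen with earlier results of these data known, so nothing is read from that share. The direction was not counted for the 65 genes. In each of the 5 the lower value was on non-GIC replicate 1. Lipoprotein lipase, Lpl, which frees fatty acids from lipoproteins, gave 6.45 on that array, 9.65 on non-GIC replicate 2 and 9.93 and 9.00 on the GIC arrays. The retinoic acid-responsive Rarres1 gave 6.31 there, 8.94 on non-GIC replicate 2 and 9.37 and 8.27 on the GIC arrays. The retinal reductase Dhrs3 gave 7.47 and 9.86 for non-GIC against 8.58 and 7.86 for GIC, and the alcohol dehydrogenase Adh1 gave 6.16 and 8.46 against 6.52 and 6.33. Fabp5 and Crabp1 ran the opposite way, with their higher non-GIC value on replicate 1. No cause was tested.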
